A study of Homo sapiens with 6 samples.

Results

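Integrin subunit mRNA was examined in Hep G2, a human liver tumor cell line, for 10 genes taken by name from a table of 23524 genes. These were the alpha chains ITGA1, ITGA2, ITGA3, ITGA5, ITGA6 and ITGAV and the beta chains ITGB1, ITGB3, ITGB4 and ITGB5, and all 10 were found in the table. The study compared Hep G2 cells that stably carried an empty lentivirus vector (control) with cells whose vector overexpressed EFTUD2, which codes for a GTPase of the spliceosome. Both kinds of cells were selected with puromycin, and 3 libraries of each were sequenced after poly-A selection. The vector's promoter is not given in the sources used here. Nothing in the labels says that the 3 libraries of a group came from separate cultures, so that p-values here measure the spread between libraries, which may be technical.

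Integrins are receptors made of 1 alpha and 1 beta chain that tie the cell to the extracellular matrix and signal through the adaptor proteins bound to their tails. The beta chain ITGB1 pairs with most alpha chains, ITGB4 pairs only with ITGA6, and ITGAV pairs with ITGB1, ITGB3 and ITGB5 among others. ITGA1 and ITGA2 bind collagen, ITGA3 and ITGA6 bind laminin, ITGA5 binds fibronectin, and ITGAV binds vitronectin, fibronectin and osteopontin. In liver tumors, integrins are studied for their part in attachment, migration and invasion.

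Values are FPKM, that is fragments assigned to a gene, which the authors divided by transcript length and by library total, so levels of different genes can be set side by side. Fold changes are differences of log2(FPKM + 1) between EFTUD2-overexpressing and control cells, so the change of a gene near 0 FPKM is understated. The groups were compared with limma over 17222 genes whose mean reached 0.1 FPKM, with Benjamini-Hochberg adjustment. Where 3 values are given for a group, they stand in the order of replicates 1, 2 and 3. No gene count was used and the depth behind each value is unknown, since low values showed no common step between libraries (the commonest ratio held at most 3.24% of genes). EFTUD2 mRNA itself had control values of 41.1, 54.4 and 46.3 FPKM and EFTUD2 values of 106.6, 102.9 and 109.5 FPKM, and its log2 fold change was 1.16 (standard error 0.12, limma adjusted p = 0.13, and 0.028 without EFTUD2 replicate 3). The liver markers ALB and AFP were present in all libraries, with their lowest value at 745 FPKM (AFP in EFTUD2 replicate 2). EFTUD2 replicate 3 stood apart, since its log2 values differed from those of EFTUD2 replicates 1 and 2 with an SD over genes of 0.51 and 0.60, whereas replicates 1 and 2 differed with an SD of 0.23 and the controls with SDs of 0.21 to 0.36. Results for the integrins are therefore given with and without this library.

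The sequences before the starts of 2 integrin genes are shown first, because these genes had the highest and the lowest fold change of the 10. They are the 250 bases before and 30 bases after the RefSeq start (GRCh38.p14). ITGA5 is read on the minus strand of chr12:54419237-54419516 and ITGA2 on the plus strand of chr5:52989102-52989381. Capitals mark matches to TGANTCA (the AP-1 site, N being any base), GGGCGG (the GC box), CCAAT and TATAAA on both strands.
ITGA5: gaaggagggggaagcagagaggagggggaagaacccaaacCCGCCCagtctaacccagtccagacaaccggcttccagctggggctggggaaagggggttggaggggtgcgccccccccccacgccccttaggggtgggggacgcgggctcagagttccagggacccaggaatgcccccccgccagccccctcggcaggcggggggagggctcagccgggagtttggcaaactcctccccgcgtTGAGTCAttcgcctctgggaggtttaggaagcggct
ITGA2: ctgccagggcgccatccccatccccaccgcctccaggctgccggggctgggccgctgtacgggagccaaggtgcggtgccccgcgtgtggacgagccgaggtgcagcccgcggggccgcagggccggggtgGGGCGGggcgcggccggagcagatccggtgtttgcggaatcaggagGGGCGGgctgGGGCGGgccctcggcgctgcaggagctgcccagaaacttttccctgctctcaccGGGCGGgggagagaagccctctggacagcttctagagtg

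The ITGA5 window holds 1 GC box and 1 AP-1 match, TGAGTCA, whose first base lies at position -6 from the start. The ITGA2 window holds 4 GC boxes and no AP-1 match. Windows were found for 7 of the 10 genes (12 windows, as some genes have several starts) and not for ITGA3, ITGB3 and ITGB4. TGANTCA was present in 1 of these 12 windows and in 7.35% of 35116 promoter windows of the same length, GGGCGG in 7 of 12 and in 44.1%, CCAAT in 1 of 12 and in 33.6%, and TATAAA in 2 of 12 and in 11.2%. These matches describe the letters only and were not compared with the expression values by any test.

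The 10 genes covered a wide range of levels, and their order was much alike in both groups. In control cells ITGB1 was highest with a mean of 115.3 FPKM, followed by ITGB5 (48.4 FPKM), ITGA6 (47.4 FPKM), ITGAV (34.5 FPKM), ITGA2 (24.4 FPKM), ITGA1 (7.96 FPKM), ITGB4 (4.48 FPKM), ITGA3 (1.33 FPKM), ITGA5 (0.45 FPKM) and ITGB3 (0.10 FPKM). Among neighbors in this order, the ranges over libraries overlapped for ITGB5 and ITGA6 alone. In EFTUD2-overexpressing cells ITGB1 again came first with a mean of 125.4 FPKM. ITGA6 (39.9 FPKM) and ITGB5 (39.0 FPKM) had overlapping ranges, and so did ITGB4 (5.44 FPKM), ITGA5 (5.37 FPKM) and ITGA3 (5.06 FPKM).

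**Figure D1:**
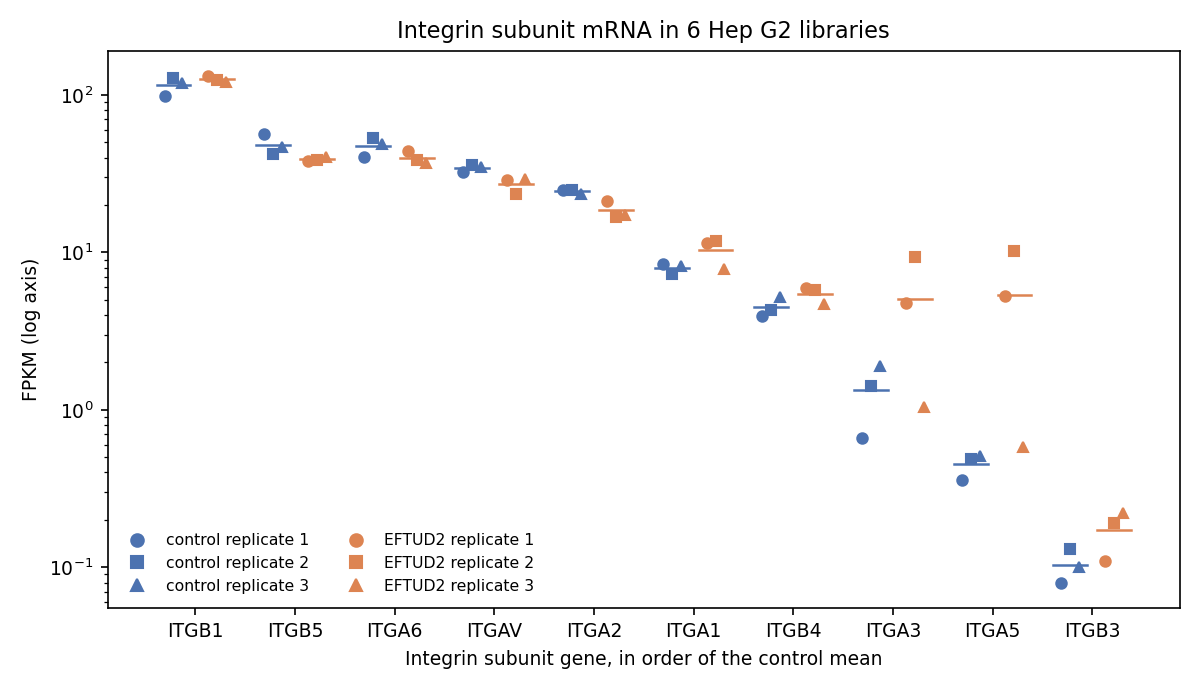
Level of each integrin subunit gene (FPKM, log axis) in the 3 control and 3 EFTUD2 libraries, with genes in the order of their control mean, replicates shown by symbol and group means as short lines. ITGA5 stands at 5.30 and 10.2 FPKM in EFTUD2 replicates 1 and 2 and at 0.58 FPKM in replicate 3, whereas ITGB1 lies between 98.4 and 131.8 FPKM in the 6 libraries.

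None of the 10 integrin genes had an adjusted p under 0.05 in limma with 6 libraries, nor did any of the 17222 genes tested (0%). At an unadjusted p under 0.05, limma gave 1 higher gene (ITGA5) and 2 lower genes (ITGA2 and ITGAV) among the 10, against 4.4% higher and 7.9% lower among all genes tested. The groups did not overlap for 4 of the 10 genes, with ITGA5 higher and ITGA2, ITGAV and ITGB5 lower in each EFTUD2 library. Over all genes tested the groups did not overlap for 27.3% (7.92% higher and 19.4% lower). The balance of these counts depended on scaling. With libraries scaled by the median of ratios or by quantiles, the groups did not overlap for 3 higher genes (ITGA5, ITGA1 and ITGB4) and 1 lower gene (ITGA2), while among all genes without overlap the share of higher ones went from 29.02% to 49.7% and 37.7%. The median log2 fold change of the 10 genes was 0.11, with 6 above 0, and that of all genes tested was -0.07, with 37.3% above 0. Without EFTUD2 replicate 3, 1 of the 10 genes (ITGA5) passed the adjusted threshold, and it was higher. Of all 17163 genes tested there, 0.973% passed, 0.891% higher and 0.0816% lower.

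**Figure D2:**
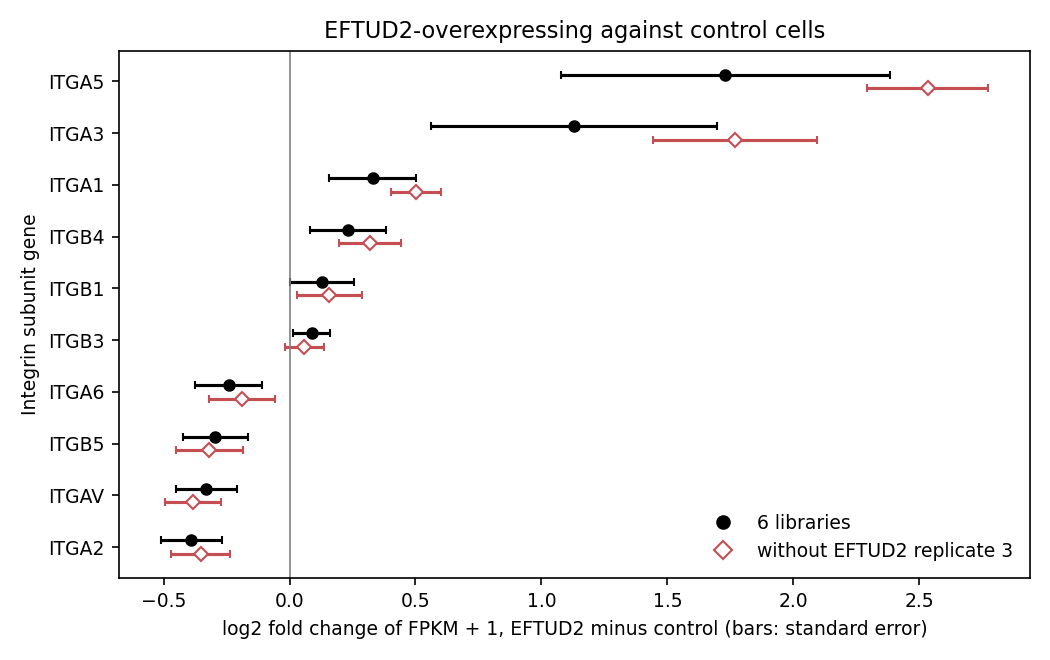
Difference of log2(FPKM + 1) between EFTUD2-overexpressing and control cells for each integrin subunit gene, with standard errors from limma, over 6 libraries (filled circles) and without EFTUD2 replicate 3 (open diamonds). ITGA5 and ITGA3 are at 1.73 and 1.13 with 6 libraries and at 2.53 and 1.77 without that library, and the other 8 genes lie between -0.39 and 0.50 in both fits.

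Among the alpha chains, ITGA5, the fibronectin receptor chain, had the largest difference. ITGA5 (Entrez gene 3678, chromosome 12 from 54395261 to 54419460 on GRCh38) had control values of 0.36, 0.49 and 0.51 FPKM and EFTUD2 values of 5.30, 10.2 and 0.58 FPKM. Replicates 1 and 2 were far above the controls, and replicate 3 lay just above the highest control. Its log2 fold change was 1.73 (standard error 0.65, limma adjusted p = 0.40), higher than in 99.6% of the genes tested. Without EFTUD2 replicate 3 it was 2.53 (limma adjusted p = 0.026), so that ITGA5 rose past the threshold in the remaining libraries, to 17.1 times the control mean. Over all settings tried the log2 fold change of ITGA5 ranged from 1.12 to 2.79.

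ITGA3, a laminin receptor chain, showed a like order of libraries. ITGA3 (Entrez gene 3675, chromosome 17 from 50055968 to 50090481) had control values of 0.66, 1.42 and 1.90 FPKM and EFTUD2 values of 4.74, 9.39 and 1.04 FPKM. EFTUD2 replicate 3 lay within the range of the controls, and the groups overlapped. The log2 fold change was 1.13 (standard error 0.57, limma adjusted p = 0.42), and 1.77 without EFTUD2 replicate 3 (limma adjusted p = 0.075). The level of ITGA3 in EFTUD2 replicate 1 was 0.505 times that in replicate 2, and that of ITGA5 was 0.519 times. In replicate 3 these ratios were 0.111 and 0.057, whereas for ITGB1, the partner of both chains, they were 1.06 in replicate 1 and 0.966 in replicate 3.

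Some markers of the mesenchymal and basal epithelial lists stood in the same order over the EFTUD2 libraries as ITGA5 and ITGA3. Among them were VIM, S100A4 and KRT17. KRT8 (EFTUD2 values of 691.2, 740.6 and 456.2 FPKM) and CALR (604.2, 621.1 and 374.2 FPKM) also stood in this order, with overlapping groups. The share of all genes tested that stood in this order was not computed. Other markers of the mesenchymal and basal epithelial lists did not share it. CDH2 had EFTUD2 values of 13.8, 9.06 and 13.2 FPKM and ZEB1 of 3.62, 3.45 and 4.86 FPKM, with replicate 2 lowest in both. With 6 libraries, 3 of 7 mesenchymal genes tested (CDH2, ZEB1 and AXL) had negative log2 fold changes. AXL, however, had EFTUD2 values of 3.94, 6.06 and 1.42 FPKM, the order of ITGA5. Without EFTUD2 replicate 3 the log2 fold change was 0.26 for AXL, -0.08 for CDH2 and -0.20 for ZEB1. Over all genes tested, 7.92% were higher and 19.4% lower without overlap, which is the background for the counts in these marker lists. VIM, SNAI2, KRT14, COL3A1 and CDH5 had control means under 0.1 FPKM and were tested only because of their EFTUD2 values. None of these could have counted as lower. Of the mesenchymal list, 2 of 7 genes tested were higher without overlap (VIM and SNAI2). S100A4 was at 73.3, 133.8 and 13.7 FPKM with EFTUD2 against 20.2 to 29.2 FPKM in the controls. The summed level of the 8 mesenchymal genes was 40.1 to 50.4 FPKM in the controls and 118.6, 213.7 and 36.2 FPKM in EFTUD2 replicates 1 to 3. Of the basal and squamous epithelial list, KRT14 and KRT17 were higher without overlap among 4 genes tested. KRT7 was at 24.7, 61.2 and 0.78 FPKM with EFTUD2 against 0.61 to 1.34 FPKM in the controls. Its log2 fold change was 2.87 (limma adjusted p = 0.40), and 4.36 without EFTUD2 replicate 3 (limma adjusted p = 0.018). SFN was at 44.3, 62.1 and 29.9 FPKM with EFTUD2 against 33.5 to 50.1 FPKM in the controls. The summed level of the 7 genes of this list was 35.3 to 52.8 FPKM in the controls and 136.2, 259.3 and 40.1 FPKM in EFTUD2 replicates 1 to 3. Vimentin (VIM) and the keratin KRT17 in replicate 1 were 0.390 and 0.495 times their level in replicate 2, and in replicate 3 they were 0.048 and 0.069 times. The basal keratins KRT5 and KRT6A and the basal cell factor TP63 were at 0.01 FPKM or less in all libraries. Of the fibroblast list, COL3A1 was higher without overlap among 5 genes tested, the summed level was 26.7 to 38.5 FPKM in the controls and 28.1 to 43.2 FPKM in the EFTUD2 libraries, nearly all of it ACTA2, and COL1A2 was at 0. In EFTUD2 replicates 1, 2 and 3, COL3A1 stood at 0.62, 1.49 and 0.14 FPKM (0 in the controls), COL1A1 at 0.78, 2.05 and 0.11 FPKM (0.09 to 0.15 FPKM in the controls) and LUM at 0.35, 0.56 and 0.01 FPKM (0.01 FPKM or less in the controls), the order of ITGA5. Of the endothelial list, VWF and CDH5 were higher and PECAM1 lower without overlap among 4 genes tested, with a summed level of 1.26 to 1.68 FPKM in the controls and 1.32 to 1.77 FPKM with EFTUD2. Of the simple epithelial list, CDH1 was higher and KRT18 and KRT19 lower without overlap among 7 genes tested. The summed level of this list was 1656 to 1850 FPKM in the controls and 997.7 to 1460 FPKM with EFTUD2. For KRT19 the log2 fold change was -1.34 (limma adjusted p = 0.21), and -1.13 without EFTUD2 replicate 3 (limma adjusted p = 0.026). In that fit 0.0816% of all genes tested passed as lower. Of the hepatocyte list, SERPINA1 and APOB were higher without overlap among 11 genes tested, with a summed level of 7096 to 11213 FPKM in the controls and 9763 to 14754 FPKM with EFTUD2. The part of other cells or cell states in the ITGA5 and ITGA3 values was not tested, and in bulk libraries a higher level per cell and a higher share of cells with the gene cannot be told apart.

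The collagen receptor chains ITGA1 and ITGA2, whose genes lie next to each other on chromosome 5, differed in direction. ITGA1 (Entrez gene 3672, from 52787896 to 52959210) had control values of 8.45, 7.25 and 8.17 FPKM and EFTUD2 values of 11.5, 11.8 and 7.87 FPKM. Replicates 1 and 2 were above all controls, and replicate 3 was among them. The log2 fold change of ITGA1 was 0.33 (standard error 0.17, limma adjusted p = 0.43) and 0.50 without EFTUD2 replicate 3 (limma adjusted p = 0.086). ITGA2 (Entrez gene 3673, from 52989326 to 53094779) had control values of 24.9, 24.8 and 23.3 FPKM and EFTUD2 values of 21.3, 16.7 and 17.4 FPKM. Each EFTUD2 library was below each control, also under the 3 other scalings. The log2 fold change of ITGA2 was -0.39 (standard error 0.12, limma adjusted p = 0.40; exact two-sided permutation test, p = 0.1), and -0.35 without EFTUD2 replicate 3. A p of 0.1 is the smallest that 3 against 3 libraries can give.

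ITGAV, the chain of the vitronectin receptors, was also lower. ITGAV (Entrez gene 3685, chromosome 2 from 186590065 to 186680901) had control values of 32.5, 36.2 and 34.8 FPKM and EFTUD2 values of 29.03, 23.7 and 29.3 FPKM, with no overlap. Its log2 fold change was -0.33 (standard error 0.12, limma adjusted p = 0.40) and -0.38 without EFTUD2 replicate 3 (limma adjusted p = 0.18). When libraries were scaled by the median of ratios or by quantiles, the groups of ITGAV overlapped, and the log2 fold change kept its sign. ITGA6 (Entrez gene 3655, chromosome 2 from 172427354 to 172506282), the highest alpha chain in both groups, had control values of 40.6, 53.0 and 48.7 FPKM and EFTUD2 values of 44.0, 38.7 and 36.9 FPKM. Control replicate 1 lay within the EFTUD2 range. The difference of ITGA6 was -0.24 on the log2 scale (standard error 0.13, limma adjusted p = 0.44), and -0.19 without EFTUD2 replicate 3.

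Of the beta chains, ITGB1 (Entrez gene 3688, chromosome 10 from 32900319 to 33005792) had control values of 98.4, 128.7 and 118.8 FPKM and EFTUD2 values of 131.8, 124.3 and 120.0 FPKM. The log2 fold change of this common beta chain was 0.13 (standard error 0.13, limma adjusted p = 0.63) and 0.16 without EFTUD2 replicate 3, with overlapping groups. ITGB5 (Entrez gene 3693, chromosome 3 from 124761948 to 124901418), a partner of ITGAV, had control values of 56.6, 42.0 and 46.6 FPKM and EFTUD2 values of 38.2, 38.4 and 40.4 FPKM. Every EFTUD2 library was below every control as deposited, and the groups overlapped under median of ratios or quantile scaling. Its log2 fold change was -0.29 (standard error 0.13, limma adjusted p = 0.40) and -0.32 without EFTUD2 replicate 3, and control replicate 1 was the highest library.

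ITGB4, the partner of ITGA6 in hemidesmosomes, had control values of 3.95, 4.33 and 5.17 FPKM and EFTUD2 values of 5.90, 5.74 and 4.67 FPKM (Entrez gene 3691, chromosome 17 from 75721328 to 75757818). EFTUD2 replicate 3 lay among the controls, and the log2 fold change was 0.23 (standard error 0.15, limma adjusted p = 0.48), or 0.32 without that library (limma adjusted p = 0.27). ITGB3 (Entrez gene 3690, chromosome 17 from 47253846 to 47311816), the beta chain of the platelet fibrinogen receptor and a partner of ITGAV, was close to 0 in all libraries, with control values of 0.08, 0.13 and 0.10 FPKM and EFTUD2 values of 0.11, 0.19 and 0.22 FPKM. The groups overlapped, and the log2 fold change was 0.09 (limma adjusted p = 0.57), a value understated by the 1 added to each FPKM. With 0.1 or 0.01 added instead it was 0.41 and 0.66 (limma adjusted p = 0.55 and 0.56), so no difference was detected at this level. The platelet markers PF4 and PPBP were at 0, and none of the 2 platelet genes tested was without overlap, against 27.3% of all genes. The summed level of that list was 0.08 to 0.54 FPKM in the controls and 0.22 to 1.13 FPKM with EFTUD2. In GENCODE 29, 51.6% of the exon bases of ITGB3 are shared with the overlapping gene AC068234.1 on the same strand, so reads could be split between them. For ITGA1 the largest such overlaps are 2.56% of exon bases with PELO and 3.08% with the pseudogene AC022133.1, and no other gene had over 3% shared.

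The 6 alpha chains together gave 116 ± 7.89 FPKM in control and 106.5 ± 11.9 FPKM in EFTUD2-overexpressing cells (SD, n = 3 each; exact two-sided permutation test, p = 0.4). The 4 beta chains gave 168.2 ± 8.33 and 170.0 ± 5.47 FPKM (SD, n = 3 each; exact two-sided permutation test, p = 0.9). Both differences depended on scaling and on single libraries. The alpha difference (EFTUD2 minus control) of -9.54 FPKM was -0.98 FPKM after median of ratios scaling, -2.88 FPKM without EFTUD2 replicate 3 and -14.25 FPKM without EFTUD2 replicate 1. ITGB1 made up 61.9%, 73.5% and 69.6% of the summed beta FPKM in the controls and 74.9%, 73.7% and 72.6% in the EFTUD2 libraries, and the ranges overlapped. Summed alpha FPKM divided by ITGB1 FPKM was 1.09, 0.957 and 0.988 in the controls and 0.879, 0.888 and 0.776 in the EFTUD2 libraries, each EFTUD2 value below each control (exact two-sided permutation test, p = 0.1). The ratio of ITGB4 to ITGA6 was 0.097, 0.082 and 0.106 in the controls and 0.134, 0.148 and 0.126 in the EFTUD2 libraries, again without overlap but in the other direction (exact two-sided permutation test, p = 0.1). These ratios within a library do not depend on a common factor per library. Over the 15 sums, ratios and shares computed, p = 0.1 became 0.25 after Benjamini-Hochberg adjustment of the exact tests. As 0.1 is the smallest p of the exact test with 3 against 3 libraries, none could pass the threshold, adjusted or not.

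The make-up of the alpha chains differed most in EFTUD2 replicates 1 and 2. ITGA5 made up 0.33%, 0.40% and 0.43% of the alpha FPKM in the controls and 4.57%, 9.26% and 0.62% in EFTUD2 replicates 1 to 3. ITGA3 made up 0.61%, 1.15% and 1.62% in the controls and 4.09%, 8.51% and 1.12% in the EFTUD2 libraries. ITGA2 had a share of 21.1% ± 1.83 of the alpha FPKM in control and 17.4% ± 1.98 in EFTUD2-overexpressing cells, and ITGA1 had 6.90% ± 0.99 and 9.70% ± 1.14 (SD, n = 3 each). For ITGA1, ITGA2 and ITGA5 the shares did not overlap between groups (exact two-sided permutation test, p = 0.1 each, the smallest possible). EFTUD2 replicate 3 had the highest share of ITGAV, 31.5%, and replicate 2 the lowest, 21.4%.

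**Figure D3:**
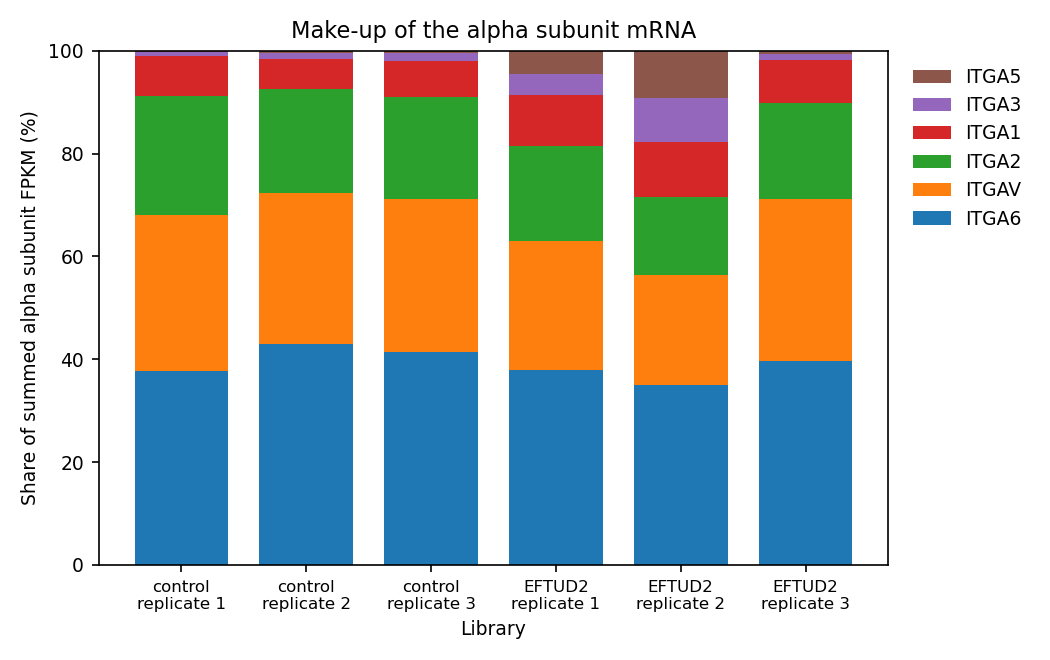
Share of each alpha chain gene in the summed alpha subunit FPKM (percent, stacked bars) for each of the 6 libraries. ITGA5 and ITGA3 take up 9.26% and 8.51% in EFTUD2 replicate 2 and 0.62% and 1.12% in EFTUD2 replicate 3. In the controls they take up 0.33% to 0.43% and 0.61% to 1.62%.

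By distance between profiles of log2(FPKM + 1) less the control mean over the 6 libraries, 12555 other genes whose mean reached 1 FPKM were ranked by likeness to ITGA5 and to ITGA2. Closest to ITGA5 were RAB34 (distance 0.23), NNMT (0.23), a transcript without a gene symbol (0.25), FSTL1 (0.27) and RPL39L (0.28). These 5 were at 0.11 FPKM or less in every control, so they reached a mean of 1 FPKM only through their EFTUD2 values. Genes near 0 in the controls differ little between controls on this scale, which favors them as neighbors of ITGA5. RAB34, a small GTPase, had EFTUD2 values of 3.25, 7.11 and 0.22 FPKM, the same order of libraries as ITGA5. Closest to ITGA2 were ARHGAP32 (distance 0.12), TNFRSF19 (0.13), a transcript without a gene symbol (0.14), ZNF883 (0.14) and MAP1B (0.14). Likeness in 6 libraries was used as a description only.

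The other integrin chains were mostly near 0. Of 16 further subunit genes, 15 were in the table and 8 could be tested, with 0 past the adjusted threshold in limma. At an unadjusted p under 0.05, limma gave 1 lower gene (ITGA10), against 7.9% of all genes tested. The median log2 fold change was 0.05. ITGA10, a collagen receptor chain of cartilage, had control values of 1.13, 0.92 and 1.36 FPKM and EFTUD2 values of 0.34, 0.17 and 0.32 FPKM, so that each was below all controls. Its log2 fold change was -0.74 (standard error 0.12, limma adjusted p = 0.23), and -0.77 without EFTUD2 replicate 3 (limma adjusted p = 0.057). ITGAL, a leukocyte chain, had control values of 0.31, 0.21 and 0.35 FPKM and EFTUD2 values of 0.41, 0.40 and 0.57 FPKM (limma adjusted p = 0.43). The leukocyte beta chain ITGB2 was at 2.31 to 3.98 FPKM in the controls and 3.90 to 4.96 FPKM in the EFTUD2 libraries. The leukocyte markers CD3E and TYROBP were at 0 and PTPRC at 0.02 FPKM or less. CD68, of the same list, was at 16.7 to 30.9 FPKM in the controls and 24.0 to 33.4 FPKM in the EFTUD2 libraries, with overlap. In that marker list CD14 was higher without overlap among 3 genes tested, against 7.92% of all genes. The summed level of the list (775.1 to 2279 FPKM in the controls, 885 to 1748 FPKM in the EFTUD2 libraries) was nearly all lysozyme (LYZ). ITGB8, a chain that pairs with ITGAV and was named after its values were seen, had control values of 0.03, 0.02 and 0.02 FPKM and EFTUD2 values of 0.29, 0.87 and 0.02 FPKM. It was tested only because of EFTUD2 replicates 1 and 2. ITGA4 was listed at 0 in all libraries.

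Genes for matrix ligands of integrins leaned higher. Of 37 ligand genes 30 were tested, and 24 had a positive and 6 a negative log2 fold change, with a median of 0.31 against -0.07 over all genes tested. COL3A1, COL4A1 and COL4A2 had control means under 0.1 FPKM and were tested only because of their EFTUD2 values, so none could have counted as lower. Limma called 0 of the 30 ligand genes with 6 libraries. At an unadjusted p under 0.05 it gave 9 higher and 1 lower, against 4.4% and 7.9% of all genes tested. The groups did not overlap for 11 higher and 1 lower gene, against 7.92% and 19.4% of all genes tested. COL4A2, a chain of basement membrane collagen, had control values of 0.07, 0.06 and 0.09 FPKM and EFTUD2 values of 2.62, 6.01 and 0.40 FPKM (log2 fold change 1.61, standard error 0.52, limma adjusted p = 0.40). Its partner chain COL4A1 did not exceed 0.02 FPKM in any control and had EFTUD2 values of 1.60, 3.12 and 0.18 FPKM. Both, with the laminin chain LAMA1, rose past the threshold without EFTUD2 replicate 3 (limma adjusted p = 0.029 for COL4A2, 0.028 for COL4A1 and 0.048 for LAMA1). In that fit 0.891% of all genes tested passed as higher.

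Ligands of the ITGAV receptors did not all share 1 order of libraries. SPP1, which codes for osteopontin, had control values of 173.1, 441.2 and 455.1 FPKM and EFTUD2 values of 1154, 1210 and 521.4 FPKM, with replicate 2 highest and replicate 3 lowest as for ITGA5 (log2 fold change 1.46, limma adjusted p = 0.40). CCN1, a matrix protein bound by several integrins, had control values of 11.1, 6.83 and 5.44 FPKM and EFTUD2 values of 11.6, 15.1 and 87.1 FPKM, so that replicate 3 was the highest here (log2 fold change 1.63, limma adjusted p = 0.40). Without that library the log2 fold change of CCN1 was 0.75. Fibronectin (FN1), the ligand of the ITGA5 receptor, was at 671.3 to 1076 FPKM in the controls and 627.3 to 1232 FPKM in the EFTUD2 libraries, and vitronectin (VTN) at 62.4 to 90.4 FPKM and 89.3 to 98.7 FPKM, both with overlap.

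**Figure D4:**
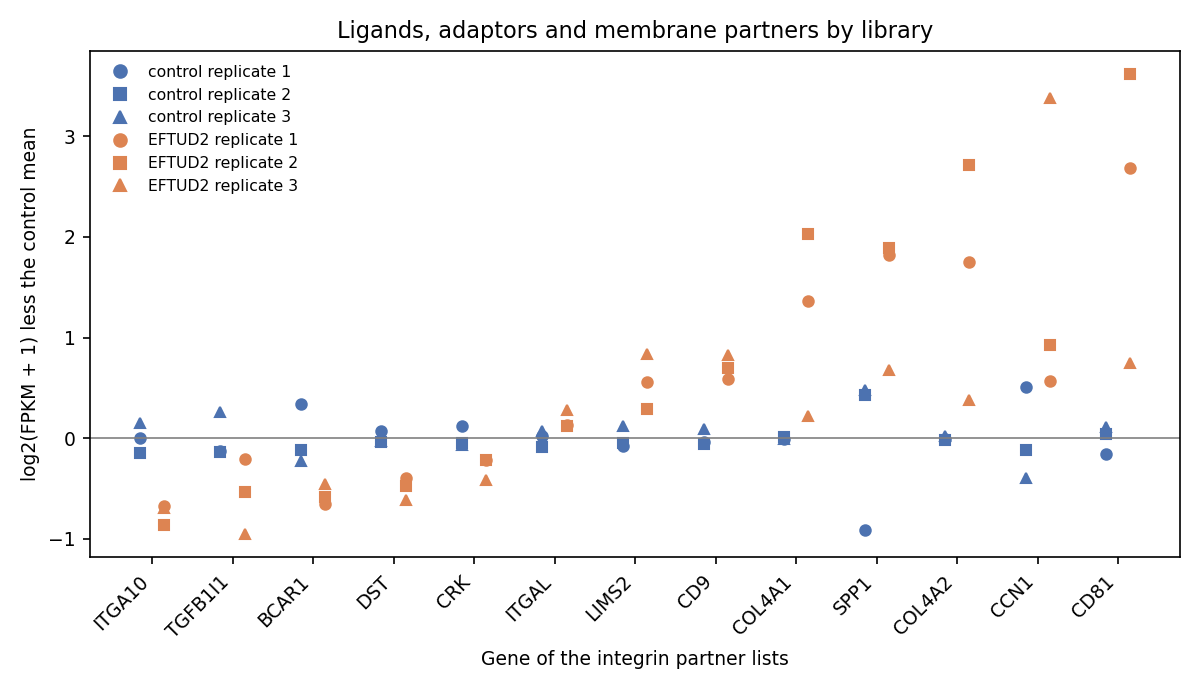
Level in each library as log2(FPKM + 1) less the mean of the 3 controls, for the genes named from the lists of other subunits, ligands, adaptors, membrane partners and hemidesmosomes. CD81, COL4A2 and COL4A1 are highest in EFTUD2 replicate 2, whereas CCN1 is highest in replicate 3, at 87.1 FPKM.

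Among 13 membrane proteins that bind integrins sideways, 2 were higher without overlap, against 7.92% of all genes tested, and both are tetraspanins. The same 2 had an unadjusted limma p under 0.05, against 4.4% higher among all genes, and 0 of the 13 passed the adjusted threshold with 6 libraries. CD9 had control values of 26.9, 26.5 and 29.4 FPKM and EFTUD2 values of 42.1, 45.4 and 49.6 FPKM, with little spread within either group. Its log2 fold change was 0.71 (standard error 0.11, limma adjusted p = 0.21), and 0.65 without EFTUD2 replicate 3 (limma adjusted p = 0.042). CD81, a partner of ITGA3 and of other chains and an entry factor for hepatitis C virus, is known to be nearly absent from Hep G2 cells. Its level was 0.05, 0.20 and 0.26 FPKM in the controls and 6.49, 13.3 and 0.96 FPKM in EFTUD2 replicates 1 to 3 (log2 fold change 2.35, standard error 0.66, limma adjusted p = 0.40). Without EFTUD2 replicate 3, limma called CD81 (log2 fold change 3.15, adjusted p = 0.018), CD9 and the caveolae protein CAV1 (adjusted p = 0.041), all higher, against 0.891% of all genes. CD151, the tetraspanin bound most closely to ITGA3 and ITGA6, was at 90.4 to 100.2 FPKM in the controls and 73.9 to 93.0 FPKM in the EFTUD2 libraries.

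Adaptors and kinases at the integrin tails had a median below that of all genes, by an amount that depended on scaling. Of 35 genes 34 were tested, and 9 had a log2 fold change above 0, against 37.3% of all genes tested. Their median was -0.14 against -0.07 over all genes, and after median of ratios scaling it was -0.03 against 0.00. After quantile scaling it was -0.04 against -0.03, and after scaling to a common sum -0.18 against -0.11. Limma called 0 of the 34. At an unadjusted p under 0.05 it gave 1 higher and 5 lower, against 4.4% and 7.9% of all genes. The groups did not overlap for 1 higher and 11 lower genes, against 7.92% and 19.4% of all genes. As deposited, the summed level of the 35 genes was 1153, 1159 and 1163 FPKM in the controls. It was 1076, 1057 and 1043 FPKM in the EFTUD2 libraries. This sum was not computed under the other scalings. BCAR1, a scaffold of focal adhesions, had control values of 48.7, 35.3 and 32.6 FPKM and EFTUD2 values of 24.1, 25.2 and 27.6 FPKM (log2 fold change -0.56, standard error 0.16, limma adjusted p = 0.40). TGFB1I1, a relative of paxillin, differed by -0.57 and the adaptor CRK by -0.28 on the log2 scale (limma adjusted p = 0.40 each). LIMS2, a partner of integrin-linked kinase, was the 1 higher gene, with control values of 1.27, 1.32 and 1.60 FPKM and EFTUD2 values of 2.52, 1.92 and 3.28 FPKM. Talin 1 (TLN1), which switches integrins on, differed by -0.05 on the log2 scale (standard error 0.11), and the kindlin FERMT2 by -0.02.

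In the hemidesmosome list 6 of 7 genes were tested and limma called 0, with 1 of 6 lower at an unadjusted p under 0.05, against 7.9% of all genes tested. DST, which codes for the plakin that links ITGB4 to keratin, had control values of 37.4, 34.6 and 34.99 FPKM and EFTUD2 values of 26.9, 25.3 and 22.9 FPKM. All EFTUD2 libraries were below all controls, and the log2 fold change was -0.50 (standard error 0.10, limma adjusted p = 0.32). The other plakin of these junctions, PLEC, was at 15.4 to 18.0 FPKM in the controls and 16.5 to 21.3 FPKM in the EFTUD2 libraries. Of 12 genes for integrin processing and traffic, all were tested and limma called 0. This was so also at an unadjusted p under 0.05, against 4.4% higher and 7.9% lower over all genes. Their median log2 fold change was -0.02 and turned to 0.06 after median of ratios scaling. RAB21, SNX17 and PCSK5 were lower without overlap, 3 of 12 genes against 19.4% of all genes tested, with log2 fold changes of -0.24, -0.22 and -0.18 (limma adjusted p = 0.43, 0.42 and 0.48).

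**Figure D5:**
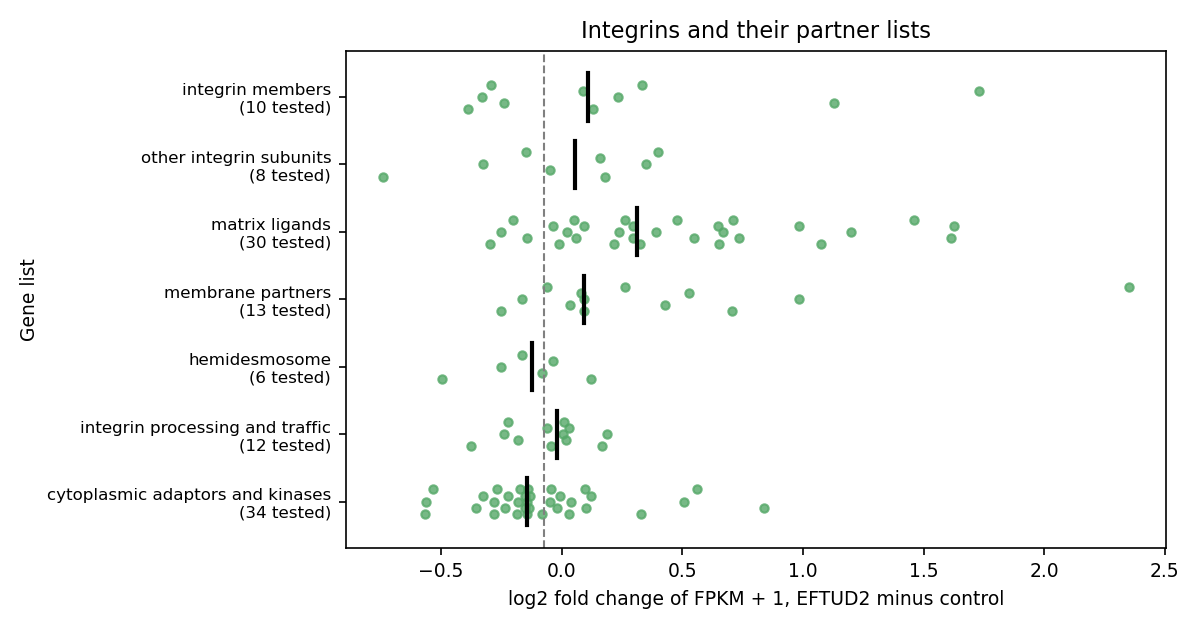
Log2 fold change of FPKM + 1 (EFTUD2 minus control) for each tested gene of the integrin list and of 6 partner lists, with the list median as a black bar and the median of all genes tested, -0.07, as a dashed line. The ligand list has its median at 0.31 and the adaptor list at -0.14, and the points of each list spread on both sides of 0.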

How the data were processed

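RNA-Seq was analysed for 6 Hep G2 libraries, 3 control and 3 EFTUD2, mapped to group and replicate from their titles. The authors deposited FPKM values per gene and library, rounded to 2 decimals. The submitters' processing notes name HISAT2, Bowtie2, RSEM and DESeq2 and the build hg38, and versions and settings are not given in the sources used here.

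From these values log2(FPKM + 1) was computed, and 17222 genes whose mean reached 0.1 FPKM were compared in R 4.3.3 with limma 3.58.1 (eBayes with its trend option). The threshold was an adjusted p (Benjamini-Hochberg) of 0.05, and the test was first tried on simulated data. Sums and ratios were compared by exact two-sided permutation tests of 3 against 3 libraries. Current symbols were taken by Entrez number for 18449 of 18762 such genes. Gene positions and overlaps came from GENCODE 29 (GRCh38) and promoters from RefSeq (GRCh38.p14). Python 3.11.15, pandas 2.3.3 and matplotlib 3.10.9 were used.

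The integrin genes and lists were chosen with earlier results of these data known. Named were the 10 genes, EFTUD2, up to 4 genes of each partner list with the largest fold change among those whose groups did not overlap, the 5 nearest profiles of ITGA5 and of ITGA2, and markers. LAMA1, CAV1, CD151, FN1, VTN, TLN1, FERMT2, PLEC, ITGB2, ITGB8, ITGA4, SNAI2, KRT7, KRT8, KRT14, CALR, COL3A1, COL1A1, LUM, CDH2, ZEB1, AXL, CD14, CD68, VWF, CDH5, PECAM1, CDH1, KRT18, KRT19, APOB and AFP were named after their values were seen. The value of 1 hepatocyte marker is not reported here. Other pseudocounts, filters and scalings, robust estimation, array weights, a replicate block and each library left out were tried.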

Additional observations from a re-analysis of the deposited data

How the results depend on the processing

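The fold changes of the 10 integrin genes kept their sign under all settings tried (for ITGB3, which the filter at 1 FPKM removed, under the others). Array weights, whose estimation stopped before it converged, gave 1246 genes in all in place of 0. They gave 4 of the 10 integrin genes (ITGA5 and ITGA3 higher, ITGA2 and ITGAV lower) and 17 genes of the partner lists, in place of 0 each. For EFTUD2 the log2 fold change was 1.14 (limma adjusted p = 0.0069), in place of 1.16 (limma adjusted p = 0.13). The weights were 27.7 for control replicate 3 and 2.30 for EFTUD2 replicate 2. They were only 0.035 for EFTUD2 replicate 1 and 0.26 for EFTUD2 replicate 3. The weighted fit therefore rested mainly on control replicate 3 and EFTUD2 replicate 2. Across the fits without 1 library, limma called 0 to 167 genes, 0 to 1 integrin genes and 0 to 6 partner genes, the higher numbers all without EFTUD2 replicate 3, where EFTUD2 also passed (limma adjusted p = 0.028). Its log2 fold change lay between 1.07 and 1.26. The number of integrin genes whose groups did not overlap was 4 to 7, the 7 without EFTUD2 replicate 3, where ITGA1, ITGA3 and ITGB4 joined. The difference in summed beta FPKM, 1.71, was -3.15 after scaling to a common sum, 4.75 after quantile and 15.5 after median of ratios scaling (exact permutation test, p = 0.2), and ranged from -2.92 to 5.15 without 1 library, below 0 without control replicate 1 or EFTUD2 replicate 1. The cause was not tested.

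The deviations of same-numbered libraries from their group means correlated at -0.30, 0.35 and -0.09. With 3 libraries a group these values depend on one another, so they cannot show whether replicate numbers pair the libraries. With the replicate block, limma called 0 of the 10 integrin genes, with adjusted p from 0.416 (ITGA5 and ITGA2) to 0.698 (ITGB1). The block changed no call. The unknown depth limits what can be said of ITGB3 and of genes near 0 in the controls.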
